A study of Mus musculus with 6 samples.

Results

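The genes described here encode the cytosolic heat shock proteins and their main transcription factor in mouse lung fibroblasts that carry a p38 knock-in allele. They were chosen by name, as every probe of the bead array annotated to 1 of 10 symbols: Hsf1, Hspa1a, Hspa1b, Hspa8, Hsph1, Hsp90aa1, Hsp90ab1, Dnajb1, Cryab and Hspb8. The array annotation used here gives 16 probes of 45281 to 8 of these symbols, and names none for Hsf1 or Hsp90ab1, which are therefore not analysed here. Of the 16 probes, 11 were detected on at least 3 of the 6 arrays and were tested, and they cover 7 genes. Hspa1b, with both of its probes near background, was not tested.

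The tested cultures were lung fibroblasts of 3 p38ki/ki mice (ki), and they were set against lung fibroblasts of 3 p38+/+ mice (wt), with 1 array per mouse. All mice were 10 weeks old, and all cells were grown in DMEM/F12 with 15% fetal calf serum and used at passage 1. The labels name no heat shock, drug or other stress, and they state neither which p38 gene carries the allele, nor what it changes, nor the sex of the mice. p38 kinases are stress-activated protein kinases, and through the kinase MK2 they lead to phosphorylation of the small heat shock protein encoded by Hspb1.

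Cytosolic heat shock proteins are molecular chaperones: they bind unfolded protein, keep it from aggregating and help it to fold. Stress releases the transcription factor HSF1, which forms trimers and binds heat shock elements, repeats of the letters GAA in alternating orientation, upstream of the inducible genes. HSP70 chaperones work in a cycle driven by ATP, in which J-domain proteins deliver the substrate and start hydrolysis, and HSP110 proteins and BAG proteins exchange the nucleotide. HSP90 acts later, on kinases and receptors that are nearly folded, and small heat shock proteins hold unfolded protein without using ATP.

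The stretches before the gene starts are shown because Hspa1a and Hsph1, the members that fell in ki, and Hspa1b, the neighbouring copy of Hspa1a, each hold 2 GAA repeats of opposite orientation there. Sequences are from RefSeq on the build GRCm38.p6, each reads 5′ to 3′ on the minus strand up to the base before the annotated start, and capitals mark GAANNTTC or TTCNNGAA. Both motifs read the same on either strand, and where GAA repeats run on they can overlap each other. Hspa1a lies at chr17:34972157-34972406, Hspa1b at chr17:34959239-34959488 and Hsph1, at the first of its 2 listed starts, at chr5:149636316-149636565.
Hspa1a: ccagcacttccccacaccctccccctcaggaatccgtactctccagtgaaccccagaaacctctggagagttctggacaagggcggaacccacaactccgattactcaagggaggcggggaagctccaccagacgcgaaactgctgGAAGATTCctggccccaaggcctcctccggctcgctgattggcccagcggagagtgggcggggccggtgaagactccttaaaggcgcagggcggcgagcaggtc
Hspa1b: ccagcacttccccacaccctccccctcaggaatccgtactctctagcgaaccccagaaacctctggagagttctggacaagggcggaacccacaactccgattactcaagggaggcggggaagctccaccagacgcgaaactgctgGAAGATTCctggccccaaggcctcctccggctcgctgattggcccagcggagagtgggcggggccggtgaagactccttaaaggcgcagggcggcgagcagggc
Hsph1: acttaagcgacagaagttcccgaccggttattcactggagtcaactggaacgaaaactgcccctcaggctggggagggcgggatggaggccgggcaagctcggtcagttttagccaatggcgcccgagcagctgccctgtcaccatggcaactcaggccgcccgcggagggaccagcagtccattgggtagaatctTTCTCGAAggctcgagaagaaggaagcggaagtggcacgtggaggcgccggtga
Hspa1a and Hspa1b were identical at 247 of the 250 bases. They differ by C44T, T47C and T249G, with the Hspa1a base first and positions counted from 1 at the 5′ end of the stretch. The letters GAAGATTC begin 104 bases before the start in both, and TTCTCGAA begins 54 bases before this Hsph1 start and 33 bases before the other. Of all 32851 listed windows of 250 bases, 6.69% held GAANNTTC, 7.17% held TTCNNGAA and 12.8% held either. Starts were listed for 5 of the 10 genes, and the windows of Dnajb1 and Hspb8 held neither motif. The Dnajb1 window at chr8:83608298-83608547 lies beyond that gene's other listed start, and so inside the gene. Only exact matches were sought, so a window without a motif may still hold a heat shock element. No start was listed for Hsf1, Hspa8, Hsp90aa1, Hsp90ab1 or Cryab, so the motifs were not looked for there. Whether a motif goes with a decrease was not tested. A match describes the letters only and is not evidence of binding.

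Of the 7 tested genes, by the brightest probe of each, Hspa1a and Hsph1 fell and Cryab rose in ki, and Hspa8, Hsp90aa1, Dnajb1 and Hspb8 did not pass the test. A gene or probe passed at an adjusted p under 0.05 in limma's moderated test, adjusted by the Benjamini-Hochberg method over all 18249 tested probes. By the same rule 15.6% of the 10412 tested genes passed, 8.36% higher and 7.25% lower, against 3 of these 7, 1 higher and 2 lower. At probe level 3 of 11 passed, 1 higher and 2 lower, where the shares over all tested probes were 14.3% in all, 7.21% higher and 7.06% lower. The median of the 7 log2 differences was -0.01, and that of all tested genes was 0.007. In such bulk RNA fewer cells of a type and less RNA per cell cannot be told apart. Levels are normalised log2 intensities, differences are log2 values with ki on top and carry a standard error (SE), folds are computed from those differences, and n = 3 mice per genotype throughout. Levels of different probes are not comparable with each other, because each probe binds with its own strength.

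**Figure D1:**
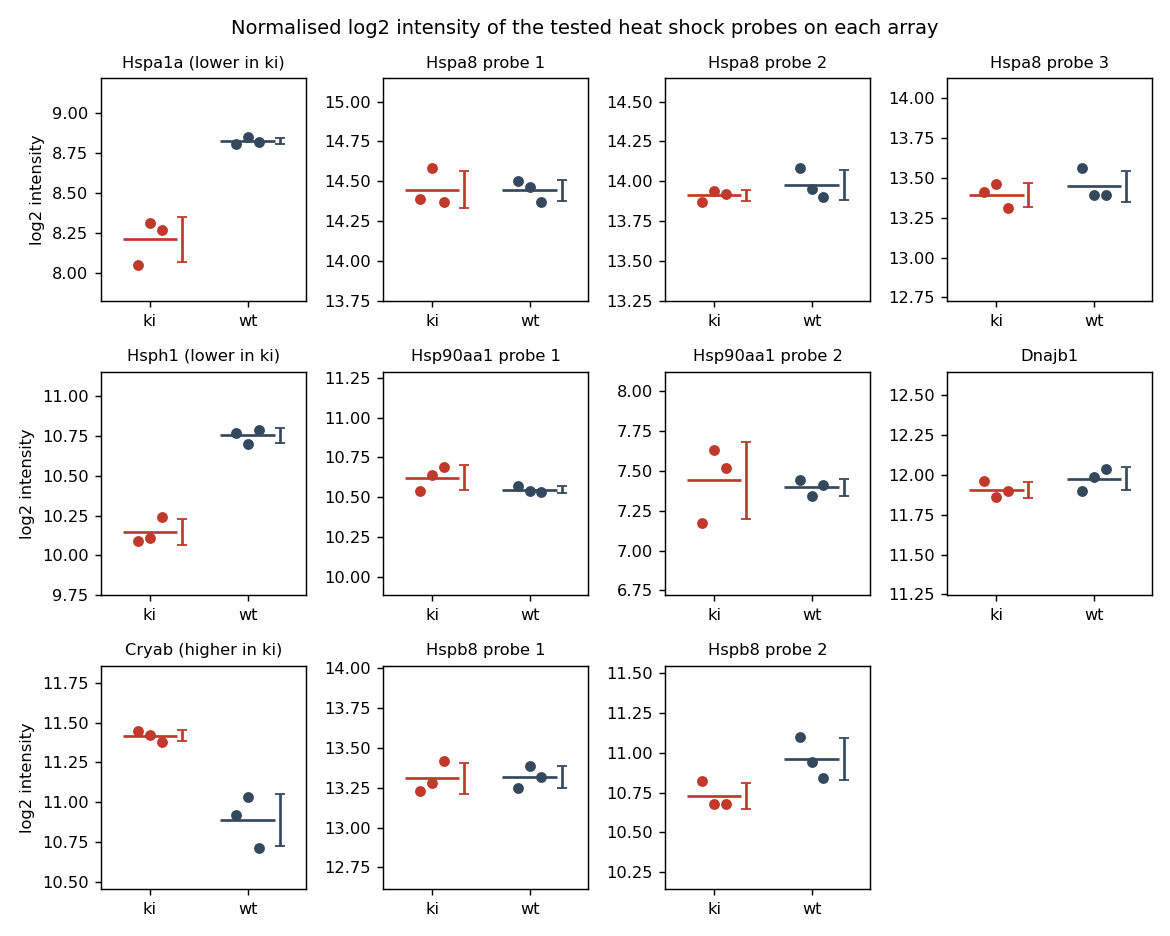
Normalised log2 intensity (vertical axes, each spanning the same number of log2 units) of the 11 tested probes on the 3 ki arrays and the 3 wt arrays. Points are arrays, horizontal lines are means and bars are SD (n = 3). The ki arrays lie below the wt arrays for Hspa1a and Hsph1 and above them for Cryab, and the genotypes overlap for both Hsp90aa1 probes, Dnajb1 and all Hspa8 probes.

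Among the HSP70 proteins, Hspa1a encodes the stress-inducible form that HSF1 switches on most strongly. Its detected probe (ILMN_2829594) had a log2 intensity of 8.05, 8.31 and 8.27 in ki, against 8.81, 8.85 and 8.82 in wt. Every ki array was below every wt array, and the ki cultures spread more widely (SD 0.14) than the wt cultures (SD 0.02). The level was 1.53-fold lower in ki (log2 difference -0.62, SE 0.0912, limma adjusted p = 0.00678, 95% interval -0.83 to -0.40). The deposited signal before normalisation was 257, 226 and 302 in ki, against 527, 461 and 441 in wt. Signals before normalisation cannot be read as a change of one gene, since every ki array was dimmer on average than every wt array, at 684.4, 519.4 and 694.7 in ki, against 846.7, 735.5 and 712.3 in wt. All 3 Hspa8 probes and the Dnajb1 probe, which did not pass, also had every ki signal below every wt signal at that stage.

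The other Hspa1a probes were not detected on any array, and the Hspa1b probes were detected on at most 1. Hspa1a and Hspa1b encode nearly the same protein from adjacent genes, and Hspa1l, a form best known from testis, stands beside them in GRCm38.p6 and was not detected widely enough to be tested. The more brightly lit Hspa1b probe (ILMN_2498263) gave deposited signals of 11.2, 17 and 7.85 in ki, against 34.7, 34.3 and 21.1 in wt. It was detected on 0 ki arrays and 1 wt array, and although its ki signals lay below its wt signals, no fold is given for a probe this close to background. The signals of the other Hspa1b probe (ILMN_2530672) overlapped, at -7.29, 16.5 and 26.8 in ki and 11.1, 28.3 and 5.5 in wt. Over the 5 untested probes of the whole family, 2 of Hspa1a, 2 of Hspa1b and 1 of Hsp90aa1, deposited signals ran from -28.7 to 34.7. The probes' own sequences are not in the sources used here, so whether the detected Hspa1a probe also binds Hspa1b transcripts cannot be told.

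Hspa8 encodes the constitutive HSP70, which folds new protein in unstressed cells. Its brightest probe (ILMN_1246458) had a log2 intensity of 14.39, 14.58 and 14.37 in ki and 14.50, 14.46 and 14.37 in wt. The genotypes overlapped on all 3 Hspa8 probes, whose differences were 0.00, -0.07 and -0.05. The 95% intervals of the 3 together ran from -0.26 to 0.21, so a change in Hspa8 as large as that of Hspa1a lies outside them. The brightest probe's difference has no settled sign: it turned negative under several of the alternatives, among them median scaling of the arrays (-0.282, or -0.064 relative to the median of all genes).

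Hsph1 encodes HSP110, which exchanges nucleotide on HSP70 and, with it, takes aggregates apart. Its single probe (ILMN_2716098) had a log2 intensity of 10.09, 10.11 and 10.24 in ki, against 10.77, 10.70 and 10.79 in wt. All ki arrays were below all wt arrays, and the gap exceeded the spread within either genotype. The level was 1.52-fold lower in ki (log2 difference -0.61, SE 0.0775, limma adjusted p = 0.00384, 95% interval -0.79 to -0.42). The deposited signals before normalisation were 1090, 806 and 1217 in ki, against 2142, 1724 and 1808 in wt, with the same reservation as for Hspa1a about the dimmer ki arrays. Of the 755 genes that passed as lower in ki, 308 had a larger decrease than Hspa1a and 322 a larger one than Hsph1.

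Dnajb1 encodes HSP40, the J-domain protein that brings substrate to inducible HSP70 and is itself a known HSF1 target. Its log2 intensity was 11.96, 11.86 and 11.90 in ki and 11.90, 11.99 and 12.04 in wt, with the genotypes overlapping. The difference of -0.07 (SE 0.0763, limma adjusted p = 0.596) had a 95% interval of -0.25 to 0.11. That interval does not reach the differences of Hspa1a or Hsph1.

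Hsp90aa1 encodes the stress-inducible form of cytosolic HSP90, and Hsp90ab1, the constitutive form, has no probe in the annotation used here. The brighter Hsp90aa1 probe (ILMN_2668319) had a log2 intensity of 10.54, 10.64 and 10.69 in ki and 10.57, 10.54 and 10.53 in wt. The other tested probe (ILMN_2752883) varied more among ki cultures, at 7.17, 7.63 and 7.52, than among wt cultures, at 7.44, 7.34 and 7.41. Neither probe separated the genotypes, with differences of 0.07 (95% interval -0.11 to 0.25, limma adjusted p = 0.572) and 0.05 (-0.26 to 0.35, adjusted p = 0.854). When arrays were scaled to a common median both turned negative, but relative to the median of all genes in that setting they were 0.046 and 0.082.

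Of the small heat shock proteins, Cryab encodes alpha B-crystallin, a chaperone of lens, heart and skeletal muscle that protects desmin filaments and is also made by stressed fibroblasts. Its single probe (ILMN_2840213) had a log2 intensity of 11.45, 11.42 and 11.38 in ki, against 10.92, 11.03 and 10.71 in wt. All ki arrays were above all wt arrays, with the wider spread in wt (SD 0.0356 in ki and 0.161 in wt). In ki the level was 1.44 times that in wt (log2 difference 0.53, SE 0.0984, limma adjusted p = 0.0157, 95% interval 0.29 to 0.76).

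The call for Cryab depends on the scaling between arrays. Before normalisation its deposited signals overlapped, at 2780, 1992 and 2661 in ki and 2374, 2198 and 1717 in wt, where the ki array with the lowest Cryab signal was also the dimmest array overall. When arrays were instead scaled to a common median, the difference was 0.25 (limma adjusted p = 0.347), in a setting where the median of all genes stood at -0.217, so that Cryab was 0.468 above that median. The same scaling moved Hspa1a to -0.822 and Hsph1 to -0.859, or -0.605 and -0.641 relative to that median, so it shifted all 3 genes downward, which makes a decrease larger and an increase smaller. The call was also lost without wt replicate 1 (log2 difference 0.546, adjusted p = 0.05 after rounding) without ki replicate 1 (0.513, adjusted p = 0.053) and in the fit without 2 arrays described last (adjusted p = 0.111). Of the 870 genes that passed as higher in ki, 531 had a larger increase.

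Hspb8 encodes a small heat shock protein that works with BAG3 in the selective autophagy of misfolded protein. Its brighter probe (ILMN_2761205) had a log2 intensity of 13.23, 13.28 and 13.42 in ki and 13.25, 13.39 and 13.32 in wt, a difference of -0.01 (95% interval -0.21 to 0.19, limma adjusted p = 0.955). Its other probe (ILMN_2944366) stood at 10.82, 10.68 and 10.68 in ki and 11.10, 10.94 and 10.84 in wt. There the ki arrays lay below the wt arrays by a small margin, with a difference of -0.23 (SE 0.0952, limma adjusted p = 0.163) that did not pass. The probes thus disagree in size, and with a variance trend and robust moderation in limma the dimmer one passed (adjusted p = 0.0358).

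Across the family 4 of the 11 tested probes had genotypes that did not overlap, 3 with ki below and 1 with ki above, where 35.5% of all tested probes had such groups. By the brightest probe of each gene it was 3 of 7, where it was 38.4% of all tested genes. The 8 probes that did not pass had adjusted p-values of 0.163 to 0.992 and log2 differences of -0.23 to 0.07.

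**Figure D2:**
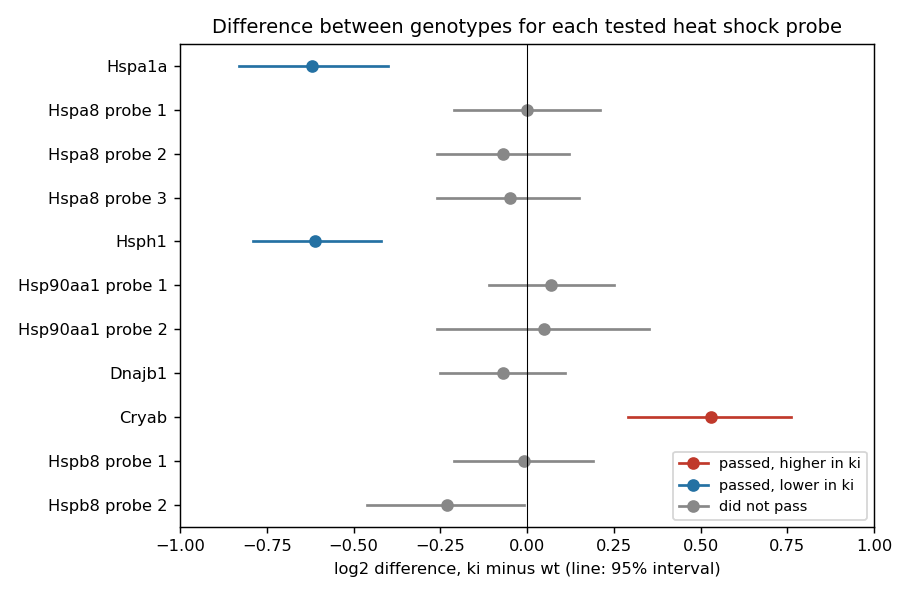
Log2 difference, ki minus wt, of each tested heat shock probe (points) with its 95% interval (lines), from limma over all tested probes. Hspa1a and Hsph1 lie to the left of 0 at -0.62 and -0.61, Cryab lies to the right at 0.53, and the 8 other probes lie between -0.23 and 0.07.

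The rest of the chaperone network was read from 9 lists with 74 genes, of which 64 were tested, 7 had probes that were too dim and 3 had no probe. In ki 5 of the 64 fell and 1 rose, or 9.38% in all against 15.6% of all tested genes, and their median log2 difference was -0.043. When arrays were scaled to a common median, 9 of the 64 were lower and 0 higher, and without wt replicate 2 the count that passed was 3. The 6 were spread over 6 of the lists, 1 in each.

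In the HSP70 system the largest change was that of Bag2, a BAG protein that inhibits the ubiquitin ligase CHIP. It had a log2 intensity of 8.02, 7.88 and 7.58 in ki, against 9.06, 8.99 and 8.73 in wt. The genotypes were apart by more than their spread, and Bag2 was 2.14-fold lower in ki (log2 difference -1.10, SE 0.142, limma adjusted p = 0.00408). The other 8 HSP70 co-chaperones did not pass, among them Bag3 (-0.11), an HSF1 target and the partner of Hspb8, and Stub1 (-0.05), which encodes CHIP itself.

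Dnajb6, a J-domain protein that suppresses aggregation of polyglutamine proteins, was at 10.76, 10.66 and 10.64 in ki, against 11.18, 11.14 and 11.06 in wt. All 4 of its tested probes were lower in ki, by -0.44, -0.45, -0.32 and -0.44 from the brightest to the dimmest, and the first and second of these passed (limma adjusted p = 0.0122 and 0.0213). The brightest probe missed the threshold without wt replicate 2 (-0.426, adjusted p = 0.0526). The other 6 tested J-domain proteins did not pass.

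Hspa2, an HSP70 protein known mainly from testis, was 1.25-fold lower in ki (log2 difference -0.32, SE 0.0807, limma adjusted p = 0.0418), and its other probe gave -0.22 (adjusted p = 0.124). Its level was 10.85, 10.96 and 10.76 in ki, against 11.22, 11.16 and 11.17 in wt. The call was lost with 5 of the 6 arrays left out singly (adjusted p 0.0491 to 0.122 over the 6).

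Among the other small heat shock proteins Hspb6, known from heart and smooth muscle, was at 13.22, 13.26 and 13.27 in ki, against 13.69, 13.87 and 13.77 in wt. That is 1.44-fold lower (log2 difference -0.53, SE 0.0788, limma adjusted p = 0.00698), about the size of the Cryab increase in the other direction. Hspb1, the p38 pathway's best known chaperone substrate, differed by -0.25 (SE 0.113, limma adjusted p = 0.207) with overlapping genotypes. It did pass under median scaling of the arrays and with a variance trend and robust moderation. Hspb2, which stands beside Cryab in GRCm38.p6 and was picked for that after its values were seen, differed by 0.18 (SE 0.0899, limma adjusted p = 0.253), also with overlap.

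Of 11 HSP90 co-chaperones only Fkbp4, which encodes an immunophilin of steroid receptor complexes, passed in the reported setting. It was at 11.50, 11.58 and 11.45 in ki, against 11.03, 11.14 and 11.06 in wt, 1.35-fold higher (log2 difference 0.44, SE 0.0757, limma adjusted p = 0.012). Under median scaling of the arrays it was 0.161 (adjusted p = 0.549), or 0.378 relative to the median of all genes. Stip1, the adaptor that links HSP70 to HSP90, was at 0.20 (limma adjusted p = 0.161) and passed with a variance trend and robust moderation.

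For the chaperonin TRiC, which folds actin and tubulin, and its partner prefoldin, 0 of 13 tested genes passed in limma (1 at an unadjusted p under 0.05), with log2 differences of -0.28 to 0.24. The smallest p-values there were those of Pfdn5 (-0.19, limma adjusted p = 0.165) and Pfdn1 (-0.28, adjusted p = 0.197). The other tested Pfdn5 probe gave 0.00 (limma adjusted p = 0.996). The brightest Pfdn5 probe passed with a variance trend and robust moderation (limma adjusted p = 0.0192). Of 6 mitochondrial chaperones 0 passed (0 at an unadjusted p under 0.05). Hspd1, the mitochondrial chaperonin, was at 0.19 (limma adjusted p = 0.188) and Hspa9, the mitochondrial HSP70, at -0.11 (adjusted p = 0.349). The other tested probes of Hspd1 and Hspa9 gave 0.07 and -0.02. With the trend and robust moderation Hspd1 passed (limma adjusted p = 0.038). In the endoplasmic reticulum 1 of 6 passed, the J-domain protein Dnajb9 (log2 difference -0.27, SE 0.0697, limma adjusted p = 0.0446), whose other tested probe gave 0.05 (adjusted p = 0.835) and whose call was lost without any 1 array (adjusted p 0.0892 to 0.128).

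Of the heat shock factors, Hsf1 itself has no probe here. Hsf4, the factor of the lens, was dim, at 6.47, 5.97 and 6.06 in ki, against 6.57, 6.80 and 6.95 in wt, and just missed the threshold (log2 difference -0.60, SE 0.160, limma adjusted p = 0.0519, range 0.00523 to 0.142 over the alternatives). Hsf2 differed by -0.09 and Hsbp1, which encodes a protein that binds HSF1, by 0.17 (limma adjusted p = 0.225). The other tested Hsbp1 probe gave -0.01.

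**Figure D3:**
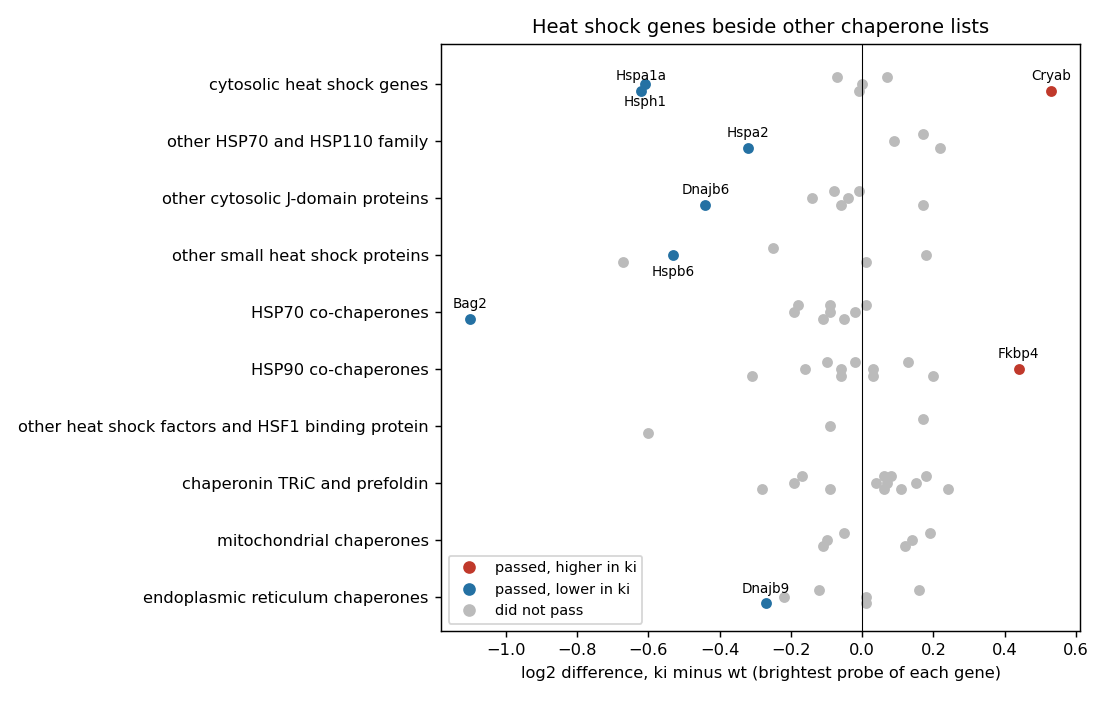
Log2 difference, ki minus wt, of the brightest probe of each tested gene (points), for the cytosolic heat shock genes and 9 other chaperone lists. Coloured, named points passed at an adjusted p under 0.05: Bag2, Hspa1a, Hsph1, Hspb6, Dnajb6, Hspa2 and Dnajb9 lower in ki, and Cryab and Fkbp4 higher.

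Hspa1a had the widest range of the 7 genes over the 6 arrays, 0.799 log2 units. The tested genes whose mean-centred profile lay nearest to it were Actg2, which encodes smooth muscle gamma-actin, Srp54a, which encodes a signal recognition particle subunit and has near-identical copies, and Gpc1, which encodes the cell surface proteoglycan glypican 1. Their root mean square distances over the 6 arrays were 0.0266, 0.0616 and 0.0659 log2 units, out of 10405 genes compared. Actg2 stood at 12.40, 12.68 and 12.57 in ki, against 13.12, 13.23 and 13.15 in wt. Nearness over these 6 arrays was the rule of choice, so the shared step and the shared low ki replicate 1 follow from it.

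Each array detected 17601 to 18531 probes, while the mean deposited signal was lower on all ki arrays than on any wt array. Of the p38 kinase genes, Mapk13 was at 1.79 times the wt level in ki (limma adjusted p = 0.0102) and Mapk14 at 1.22 times (adjusted p = 0.0368), while Mapk11 (0.22) and Mapk12 (-0.18) did not pass. Other tested Mapk12 probes differed in sign, at -0.35 and 0.27, and neither passed. The other tested Mapk13 probe gave a log2 difference of 0.88 (limma adjusted p = 0.0116). The Mapk14 log2 difference was 0.012 under median scaling, or 0.23 relative to the median of all genes, and it missed the threshold without any 1 array. All 10 fibroblast markers were detected in all cultures, and 5 of them fell in ki, with summed normalised intensities of 81091 to 85163 in ki and 101237 to 107870 in wt. Markers of other cells differed on the same arrays. All 9 tested mesothelial markers rose, with sums of 10414 to 11163 in ki and 1520 to 1753 in wt, where Krt19 and Gpm6a were undetected, and 3 of 6 epithelial markers rose (4669 to 4917 in ki, 1357 to 1445 in wt), with Epcam, Sftpc and Sftpb not tested. All 8 neutrophil markers fell (2886 to 3291 in ki, 12544 to 13241 in wt), with Mpo, Ctsg, Ngp and Camp undetected in ki. Macrophage and leukocyte markers had 1 of 8 higher and 2 lower (106082 to 114247 in ki, 111289 to 115398 in wt). Most of each of these sums came from Lyz2, the brightest of the 8, which differed by 0.05 and did not pass. They therefore say little about Adgre1, which rose, or C1qa and Itgam, which fell. Of 6 endothelial markers 0 passed, 3 being at an unadjusted p under 0.05 in limma (1466 to 1556 in ki, 1697 to 1735 in wt). Of 6 muscle markers Des, which encodes desmin, rose (log2 difference 0.74), and Myh11 (-0.83) and Myl1 (-4.41) fell. The muscle sums were 69925 to 72874 in ki and 68900 to 72926 in wt. Most of each sum came from Acta2, by far the brightest of the 6, which differed by 0.03 and did not pass. The sums therefore do not show the falls of Myh11 and Myl1. Cnn1, Tnnt2 and Ckm were not tested, and Myl1 was undetected in ki. The part of these cells in the heat shock differences was not tested.

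The decreases of Hspa1a and Hsph1 kept their direction in all 18 alternatives and passed in 17 of them. Their log2 differences ran from -0.822 to -0.536 for Hspa1a and from -0.859 to -0.58 for Hsph1. The exception was the fit that left out the dimmest ki and the brightest wt array together, which leaves 2 arrays per genotype, with -0.676 (adjusted p = 0.0544) for Hspa1a and -0.58 (adjusted p = 0.0622) for Hsph1. Cryab kept its direction in all 18 and passed in 14, with differences of 0.25 to 0.597. For these genes direction could not change in settings that refit the reported log2 values, where the differences equal those reported. Such settings are the altered detection filters, the trend and robust moderation, the replicate block and the single probe per gene.

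**Figure D4:**
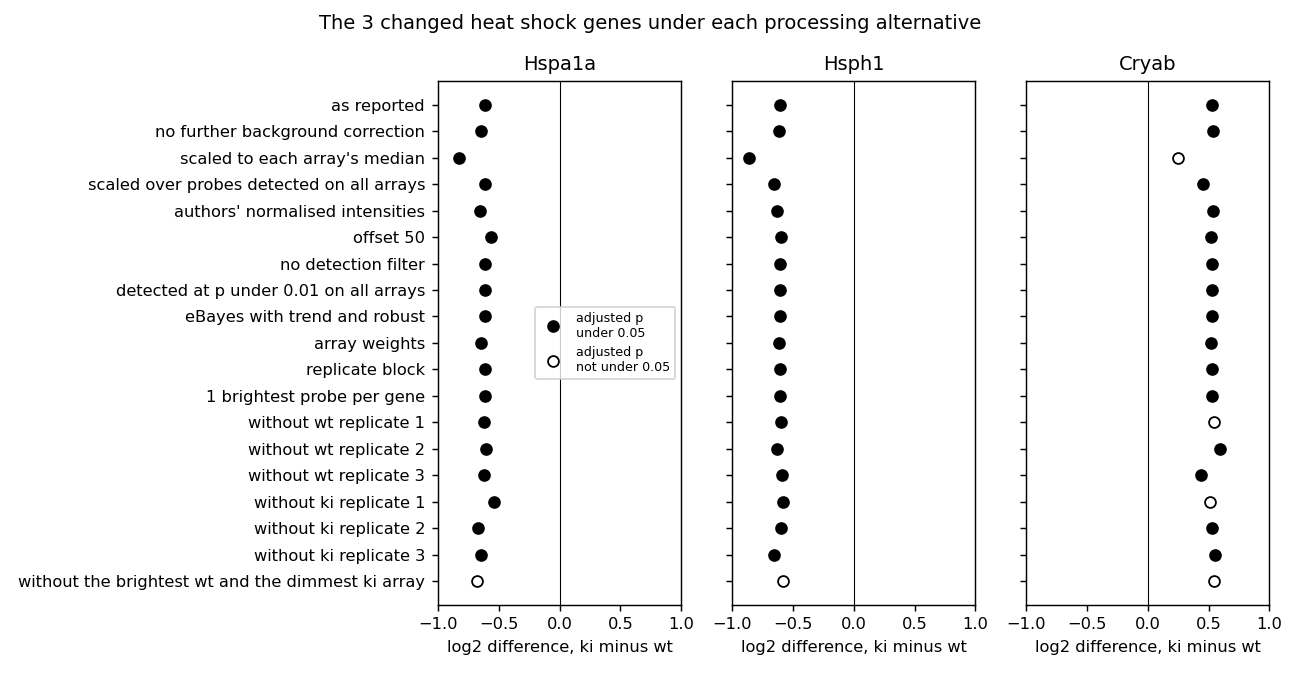
Log2 difference, ki minus wt, of Hspa1a, Hsph1 and Cryab (horizontal axes) as reported and under 18 processing alternatives (rows). Filled points passed at an adjusted p under 0.05 and open points did not: 1 of 18 alternatives is open for Hspa1a and for Hsph1, and 4 for Cryab.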

How the data were processed

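Biotin-labelled RNA of 6 mice was hybridised to Illumina bead arrays, per the labels' protocols. The deposited intensities of the table headed as not normalised fall below 0 for 28.6% to 32% of the probes on an array, and a deposited detection p-value stands beside each, per the file headers. A second table by the authors holds normalised intensities, and the series values equal it. The sources used here name neither the software nor the normalisation method.

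From the table before normalisation, limma 3.58.1 (R 4.3.3) removed background by normexp, with control levels taken from detection p-values and an offset of 16, followed by quantile normalisation and log2. Symbols from the array annotation were updated by gene identifier: 34885 probes had 1 symbol, 18 several and 10378 none. A probe needed a detection p under 0.05 on 3 or more arrays and was then tested in a limma fit with moderated variances, adjusted over all 18249. A gene is represented by its brightest tested probe. Each heat shock gene with a probe is described, as are up to 4 passing genes of each other list with the smallest p, or up to 2 where none passed, the p38 genes and the 3 profiles nearest to the widest-ranging member. Bag3, Stub1, Stip1, Hsf2, Hspb1 and Hspb2 were added after their values were seen. Members, lists and tests were chosen with earlier results of these data known. Precision is limited by having 6 arrays. The labels name nothing but the number that same-numbered arrays share, so whether they also shared a batch is not known. Python 3.11.15 and matplotlib 3.10.9 drew the figures.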

Additional observations from a re-analysis of the deposited data

How the results depend on the processing

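Of 534 refits of the 30 named differences under 18 alternatives, 469 kept their direction and their side of the threshold, 40 lost the call, 8 gained it and 17 changed sign, none of the 17 in a difference that had passed. The causes of these changes were not tested, except where fewer probes or arrays enter by construction. Direction could not change in the settings that refit the reported log2 values, among them those of detection filter and moderation. The count of passing probes was 2604 as reported, 1730 without a detection filter, 1687 with 1 probe per gene (fewer probes tested), 791 when the dimmest ki and the brightest wt array were both left out (fewer arrays) and 1500 to 1849 with 1 array left out. Under median scaling of the arrays 596 probes were higher and 2399 lower in ki, against 1315 and 1289 as reported. The count of passing heat shock genes was 3 as reported, 2 to 3 with 1 array left out, and 0 in limma without those 2 arrays, where 3 had an unadjusted p under 0.05. That of other chaperone genes was 6 as reported, 12 with trend and robust moderation, 3 to 6 with 1 array left out and 0 without those 2 arrays, where 10 had an unadjusted p under 0.05. Without wt replicate 2 it was 3, and without wt replicates 1, 2 and 3 the probe counts were 1533, 1500 and 1572. Under the same median scaling the sign turned for Hspa8 (ILMN_1246458, -0.282), Hsp90aa1 (ILMN_2668319, -0.171, and ILMN_2752883, -0.135), Hsbp1 (-0.107) and Hspd1 (-0.124). That setting puts the median of all genes at -0.217, and relative to it both Hsp90aa1 probes (0.046 and 0.082), Hsbp1 (0.11) and Hspd1 (0.094) stayed positive while Hspa8 was at -0.064. The same Hspa8 probe was at -0.074 with scaling over detected probes, -0.011 with array weights and -0.032 without those 2 arrays, and Hsp90aa1 (ILMN_2752883) was at -0.001 with array weights and -0.023 without them. With 1 array left out the differences ran from -0.06 to 0.038 for that Hspa8 probe, -0.083 to 0.005 for ILMN_1249586, -0.049 to 0.182 for ILMN_2752883 and -0.061 to 0.031 for Hspb8 (ILMN_2761205). With the replicate number as a block 1789 probes, 3 heat shock genes and 4 other chaperone genes passed; Hspa2 (adjusted p = 0.0871), Dnajb9 (0.0986) and Mapk14 (0.0879) lost their calls. Deviations of same-numbered arrays correlated at 0.004, 0.014 and 0.105, and 1 of the 3 ki arrays correlated best with the wt array of its own number. A block by slide was not run, since no slide is named in the files.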

Other observations

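Ratios of signals within an array do not change when all signals of that array are multiplied by a common factor. They were computed from the deposited values before normalisation, as a description chosen after the values were seen. The Cryab signal over the Hsph1 signal was 2.55, 2.47 and 2.19 on the ki arrays, against 1.11, 1.27 and 0.95 on the wt arrays. Hsph1, the HSP110 exchange factor, stood at 0.044 to 0.0577 of the Hspa8 signal in ki, against 0.0718 to 0.0826 in wt. Inducible Hspa1a stood at 0.0121 to 0.0143 of it in ki, against 0.0184 to 0.0201 in wt, and Cryab at 0.109 to 0.131, against 0.0784 to 0.0915. For each of these ratios every ki array lay on the same side of every wt array. The pairs set genes that had passed against Hspa8 or against each other, so this separation follows from the choice and is no further support. It does not show which probe of a pair changed.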
